A study of Drosophila melanogaster with 6 samples.

Results

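Eye-only borders were the domain borders of the pooled eye disc list that had no border of the pooled antennal disc list within 5 kb. Applying this rule left 279 eye-only borders of 1146 in the pooled eye list; the other 867 had an antennal partner and are called shared here. The pooled lists of both tissues held 2384 borders in all. They were thus chosen by the called positions in the pooled lists alone. The series mapped chromosome folding by Hi-C, in which fragments that touch in the nucleus are ligated and read as pairs, in hand-separated eye and antennal imaginal discs of third-instar *Drosophila melanogaster* larvae. All larvae had the genotype yw;+;+, and each library came from a pool of 125 discs. Lists of topologically associating domains (TADs) of eye disc libraries 1, 2 and 3, of antennal disc libraries 2 and 3, and of the pooled replicates of each tissue were used. Antennal disc library 1 was not analysed here, and a pooled disc holds all its cell types together. The lists give positions on the dm6 genome only, so depth and border strength were unknown.

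Within a TAD, DNA meets other DNA of the same TAD more often than DNA outside it, and the borders between them limit which enhancers meet which promoters. In flies, borders are known to lie mostly at promoters of active genes and at sites of insulator proteins, and most are known to be kept between tissues. The eye and antennal discs arise from a common primordium. A border called in the eye list alone can differ from the antennal list in position or in presence. A border was the end of 1 TAD and the start of the next, merged to their mean when at most 5 kb apart, which is the bin size that all positions follow. It is given below as a position in kb, with base positions counted from 1 for TADs and genes.

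The rule fixed that eye-only borders were in the pooled eye list and missing from the pooled antennal list, and the pooled lists were made from the replicates. What the single libraries held is therefore a description, given without a test. Eye disc library 1 had a border within 5 kb of 102 of the 279 (36.6%), library 2 of 202 (72.4%) and library 3 of 198 (71.0%). Antennal disc library 2 had one at 53 (19.0%) and library 3 at 60 (21.5%). The mean was 60.0% ± 20.3 (SD, n = 3) in the eye disc and 20.3% ± 1.77 (SD, n = 2) in the antennal disc, and the tissues did not overlap. Library 1 stood far below the other eye libraries, and 55 of the 279 lay outside its first and last TAD of the arm.

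Shared borders were found more evenly. The eye libraries held 61.8%, 94.3% and 87.5% of the 867, and the antennal libraries 85.0% and 73.9%. A bin position anywhere between the first and last TAD lay within 5 kb of a border in 12.9% to 14.8% of cases, depending on the library. Over the eye-only borders that lay between the first and last TAD in the same way, 45.5%, 72.9% and 71.2% were found in eye libraries 1, 2 and 3, which is 3.07, 5.52 and 5.50 times the share of bin positions. In antennal libraries 2 and 3, 19.6% and 23.6% were found, or 1.42 and 1.61 times that share. The bin positions include those within 5 kb of pooled antennal borders, which the rule excludes for eye-only borders. The ratios therefore carry the selection and do not measure presence beyond chance in either tissue. In every library, eye or antennal, eye-only borders were found less often than shared ones.

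**Figure D1:**
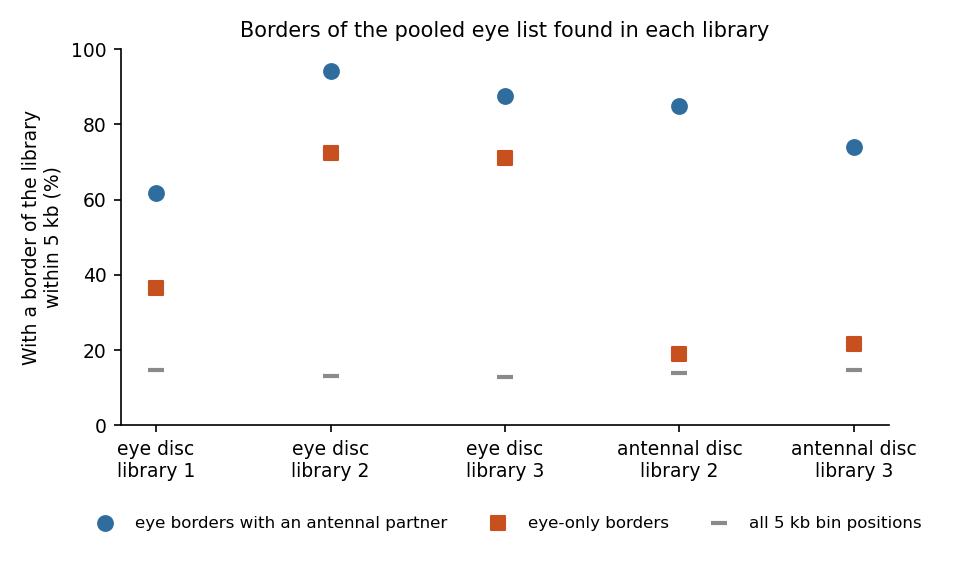
Percentage of pooled eye borders with a border of each library within 5 kb, for the 279 eye-only borders (squares), the 867 shared borders (circles) and all 5 kb bin positions between a library's first and last TADs (dashes). Eye-only borders reach 72.4% in eye disc library 2 and lie at 19.0% and 21.5% in the antennal libraries. The dashes include positions beside pooled antennal borders, which the rule excludes for eye-only borders.

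Few eye-only borders followed the tissue in every library. A pattern of all 3 eye libraries and neither antennal library held for 29 of 279 (10.4%); over all pooled eye borders it held for 3.84%, a figure that includes the 29. The count was 74 when eye disc library 1 was left out (background 10.6%), and 105 when antennal disc library 3 was left out too (background 16.9%). A further 34 eye-only borders were held by all 3 eye libraries and at least 1 antennal library (42.8% of all pooled eye borders), and 5 of these by all 5 libraries (33.9% of all). No library held 16 eye-only borders (1.57% of all), so these were called from the pooled eye replicates alone. At least 1 antennal library held 102 of the 279 (36.6%), against 78.4% of all pooled eye borders.

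Eye libraries also differed among themselves. Of the pooled eye borders, 24.3% were eye-only. Of the borders of eye disc library 3, 24.3% had no partner in eye disc library 2, and of those of library 2, 26.0% had none in library 3. Pairs that included library 1 ranged from 46.5% to 50.6%. Between a single eye and a single antennal library, the share without a partner ran from 30.4% to 48.9% over 6 pairs. Pooled lists combine replicates, so the pooled and single-library shares are given side by side only.

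The same rule applied to single libraries gave borders that were alike in some measures and not in others. Each eye library set against each antennal library left 472 ± 99.3 eye-only borders (SD, n = 3 eye libraries, each averaged over both antennal libraries), at a median of 28.3 ± 1.44 kb from an antennal border. Of these, 94.3% ± 5.0 lay inside an antennal TAD, and 59 ± 12.2 antennal TADs with both ends matched were divided. They had 2.79 ± 0.445 gene ends within 5 kb. The pooled lists gave 96.1% inside antennal TADs, 51 divided TADs and 2.73 gene ends, each within 1 SD of these means. The share inside antennal TADs was largely fixed by the rule, because few positions away from antennal borders lie outside a TAD. Their median distance of 25 kb lay over 2 SD below. So did their eye-only share, 24.3% against 40.1% ± 7.39. The share inside a gene body, 60.9% against 65.0% ± 3.63, lay over 1 SD below.

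The 5 eye-only borders that all 5 libraries held, all on 3R, were singled out after their values were seen. They lay in *kkv*, the chitin synthase gene, at 5390 kb, beside *CG6959* at 11870 kb, in *pnt* at 23345 kb, in *CG6000* beside the heat shock gene *Hsp68* at 24055 kb and in *CG11317* at 31095 kb. Taken by itself, the border beside *CG6959* divided a TAD of the pooled antennal list into 110 and 110 kb. That TAD also held an eye-only border at 11955 kb, in *Hsp70Aa*. Nevertheless the library distances of the border beside *CG6959* were 5, 0 and 0 kb in the eye and 0 and 5 kb in the antenna. Here the pooled antennal list lacked a border that both of its analysed libraries had.

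Many eye-only borders lay close to an antennal border. The distance to the nearest pooled antennal border had a median of 25 kb, with quartiles of 15 and 50 kb and a range of 7.5 to 180 kb. Just inside the threshold, 58 borders lay 7.5 or 10 kb away, and just outside it, 263 shared borders lay 2.5 or 5 kb from their partner and 604 at the same position. Beyond 25 kb there were 133 eye-only borders, beyond 50 kb 64 and beyond 100 kb 17. Of the 58 nearest, 51.7% were held by at least 1 antennal library, compared with 36.4% of the 88 at 15 to 25 kb and 30.1% of the 133 beyond 25 kb.

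The largest class was a pair of unmatched borders, 1 per tissue, a few bins apart. For 133 eye-only borders (47.7%) the nearest antennal border had no eye partner either and lay at most 25 kb away, at a median of 15 kb. Another 58 (20.8%) lay inside an antennal TAD whose ends were both matched in the eye, at a median of 55 kb from an antennal border. A further 77 (27.6%) lay inside an antennal TAD of which 1 end (56) or no end (21) was matched. The remaining 11 lay outside antennal TADs, 8 of them beyond the first or last antennal TAD of the arm. At least 2 eye libraries held 66.2% of the first class, 65.5% of the second and 62.3% of the third, but 36.4% of those outside antennal TADs. Antennal libraries held the first class more often, with 43.6% found in at least 1, against 36.2% and 28.6%.

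**Figure D2:**
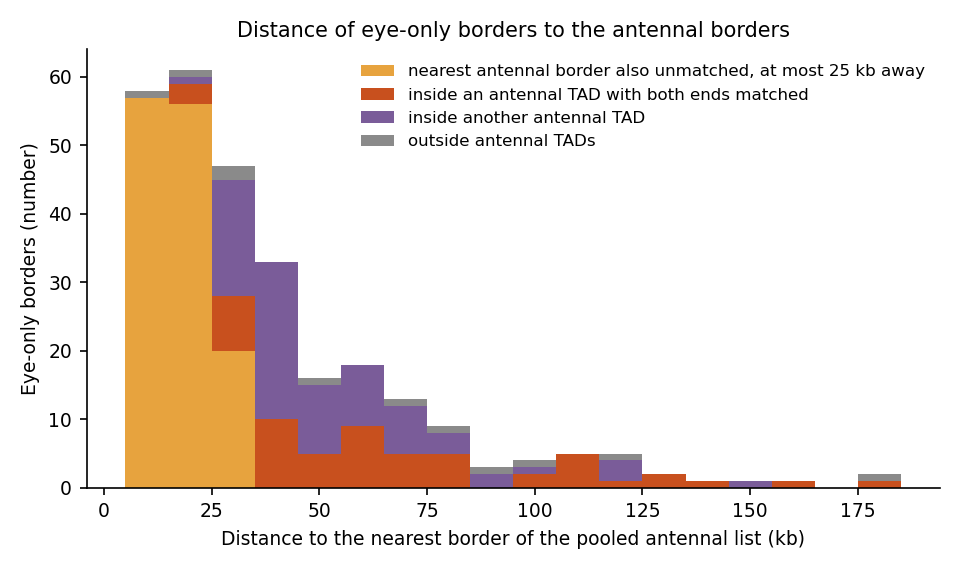
Number of eye-only borders by distance to the nearest border of the pooled antennal list, in steps of 10 kb, coloured by the antennal TAD they fell in. The class whose nearest antennal border is also unmatched, 133 borders, makes up most of the lowest steps, and the 58 borders inside TADs with both ends matched reach out to 180 kb.

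Eye-only borders cut 238 of the 1212 pooled antennal TADs (19.6%). Of these, 209 held 1 eye-only border, 28 held 2 and 1 held 3. The median cut TAD was 130 kb wide and the median uncut TAD 85 kb. Among TADs of 200 kb or more, 43.8% were cut, against 2.35% of those under 50 kb. Per length, TADs of 25 to under 50 kb held 0.653 eye-only borders per Mb. The cause of this low value was not tested. Per length the difference was small above 50 kb, from 1.98 eye-only borders per Mb in TADs of 50 to under 100 kb to 2.34 in those of 200 kb or more. The smaller piece had a median of 25 kb, or 21.4% of the TAD. In the 51 TADs with both ends matched, which the eye disc list divides outright, the median width was 175 kb and the smaller piece 55 kb, or 30.1%.

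**Figure D3:**
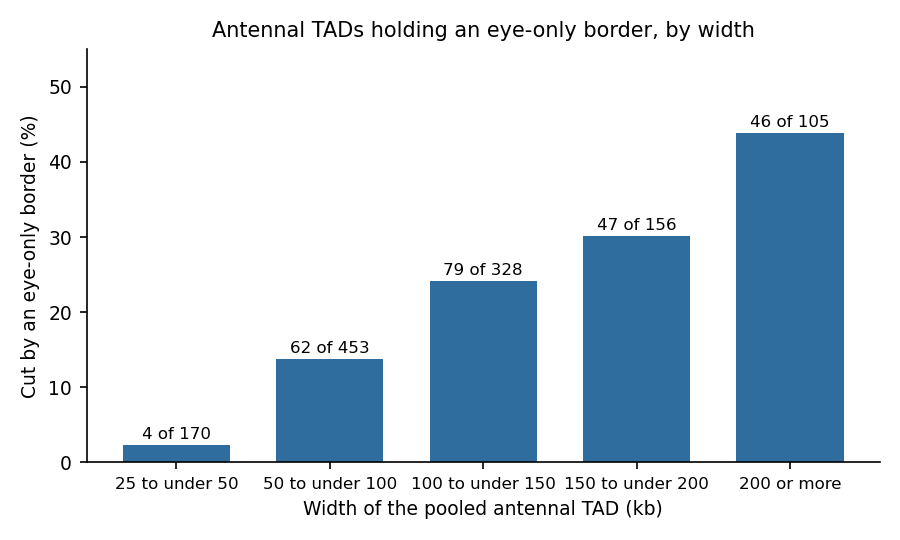
Percentage of pooled antennal TADs that hold at least 1 eye-only border, by TAD width, with the numbers above the bars. The percentage rises from 2.35% under 50 kb to 43.8% at 200 kb or more.

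Pieces were measured for each border by itself, also where a TAD held another eye-only border. Among divisions held by at least 2 eye libraries and no antennal library, those whose pieces differed least in kb lay at *Cyp12c1*, *CG33110*, *bocks*, *stol* and *gce*. The border at 21750 kb on X, described below among the farthest, divided 385 kb into 205 and 180 kb and tied with *stol* and *gce*. The TAD at *Cyp12c1*, a cytochrome P450 gene on 3L, ran from 18625001 to 18745000, and the eye border at 18685 kb divided it into 60 and 60 kb. The nearest borders of eye libraries 1, 2 and 3 lay 0, 0 and 0 kb from that position, and those of antennal libraries 2 and 3 lay 60 and 60 kb away. Each eye library therefore had the border at the same bin, and neither antennal library had any border nearer than 60 kb. Ends of *Chmp1*, an ESCRT-III gene, *CG32202* and *Sgf11*, a SAGA complex gene, lay within 5 kb.

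On 3R, the border at 22580 kb lay in *CG33110* (22570188 to 22580392), 0.392 kb from its end and beside *CSN6*, a COP9 signalosome subunit gene. It divided 105 kb into 50 and 55 kb, and lay 5, 0 and 50 kb from borders of eye libraries 1, 2 and 3 and 50 and 40 kb from those of antennal libraries 2 and 3. Eye library 3 thus lay as far away as the antennal libraries. At *bocks*, which encodes a LEM-domain protein of the nuclear envelope (3R, 9589468 to 9591002), the border at 9590 kb divided 80 kb into 35 and 45 kb. Distances were 5, 0 and 5 kb in the eye libraries and 35 and 35 kb in the antennal libraries, so all 3 eye libraries held it.

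The border at 15660 kb on 2L fell inside *stol* (15644183 to 15718272) and, taken by itself, divided 295 kb into 160 and 135 kb. Ends of *CG44141* and *CG18477* lay within 5 kb. It lay 0, 0 and 145 kb from borders of eye libraries 1, 2 and 3 and 100 and 125 kb from those of antennal libraries 2 and 3. The same antennal TAD held another eye-only border at 15720 kb, so the eye list cut its larger side again. The border at 15315 kb on X fell inside *gce*, a juvenile hormone receptor gene (15297766 to 15319074), near *Top1*, the DNA topoisomerase I gene, and *mir-4957*. It divided 85 kb into 30 and 55 kb, with 0, 5 and 0 kb in the eye libraries and 30 and 25 kb in the antennal libraries. At *gce* all 3 eye libraries held the border, whereas at *stol* eye library 3 had the farthest border of all 5.

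The 29 eye-only borders that followed the tissue lay 10 to 95 kb from the nearest pooled antennal border, with a median of 25 kb. Of these, 15 belonged to the pairs of unmatched borders, 5 lay in antennal TADs with both ends matched and 9 in other antennal TADs. In 13 of the 29 eye library 1 had its border in the very same bin, in 20 eye library 2 and in 21 eye library 3. An antennal library border lay within 10 kb of 9 of them. There were 9 on 2R, 8 on 3L, 5 on 2L, 4 on X, 3 on 3R and 0 on chromosome 4, where eye library 1 and antennal library 3 have no TADs.

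The farthest of these lay at 13410 kb on 2R, 0.113 kb from the end of *CG18278* (13408042 to 13409887) and near *CR45470* and the antimicrobial Baramicin genes *BaraA2* and *BaraA1*. The pooled antennal border nearest to it was 95 kb away, but antennal libraries 2 and 3 had borders 25 and 20 kb away, against 5, 0 and 0 kb in the eye libraries. The next, at 21600 kb on 2R, lay 5.67 kb from *CG10433* (21605676 to 21608125), next to *lncRNA:CR45150*, and 70 kb from a pooled antennal border. Its library distances were 0, 5 and 0 kb in the eye and 70 and 10 kb in the antenna, so antennal library 3 had its border just outside the threshold.

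At 8300 kb on 2L the border fell in *Btk*, a tyrosine kinase gene (8258373 to 8301079), 1.08 kb from its end and near *wol*, *Scgalpha* and *lncRNA:CR43752*. Each eye library had it at 0 kb, and antennal libraries 2 and 3 had their nearest borders 60 and 65 kb away. This is as clear a difference between the tissues as that at *Cyp12c1*. At 17065 kb on 2L no gene end lay within 5 kb, the nearest coding gene being *CG15136* at 16.7 kb. Distances there were 0, 5 and 0 kb in the eye libraries and 65 and 30 kb in the antennal libraries.

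The border at 6550 kb on 3L lay 0.104 kb inside the end of *sfl*, a heparan sulfate N-sulfotransferase gene (6495680 to 6550104), and beside *MCU*, the mitochondrial calcium uniporter gene. It was 5, 0 and 0 kb from eye library borders and 50 and 50 kb from antennal ones. The border at 9955 kb on 2R lay in *Mef2*, the muscle transcription factor gene (9913496 to 9958858), with *Pdrg1* and *Pal1* beside it. Eye distances were 5, 0 and 0 kb, and antennal distances 30 and 35 kb. That all eye libraries lay nearer than either antennal library was fixed by the choice of these borders.

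**Figure D4:**
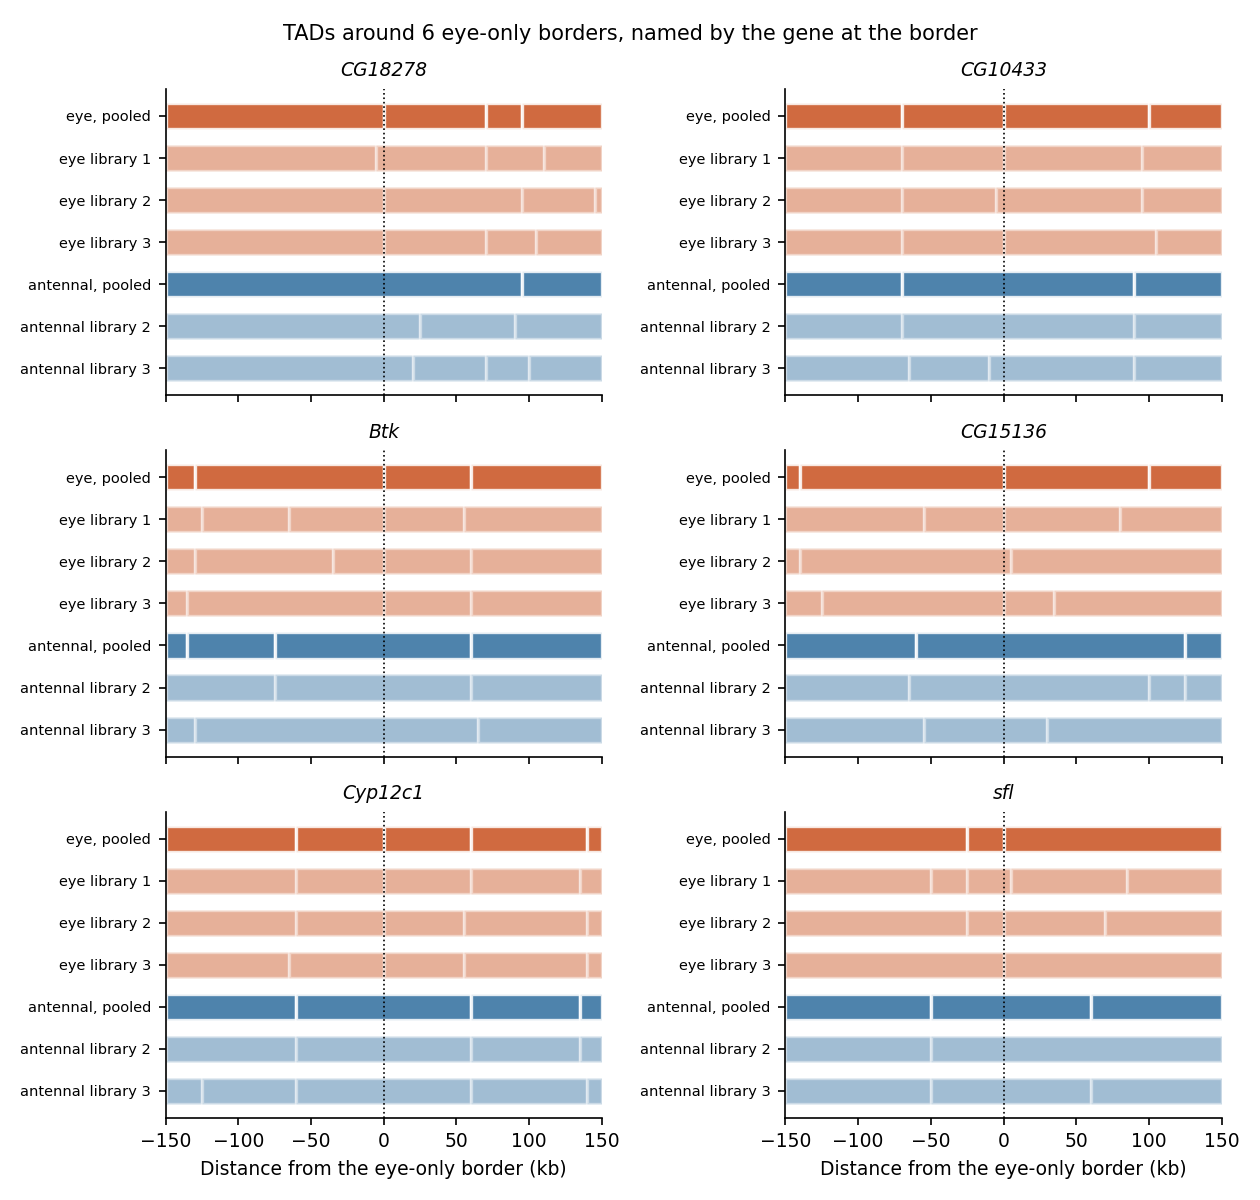
TADs (bars, white gaps at their borders) within 150 kb of the 6 eye-only borders farthest from a pooled antennal border among the 29 that followed the tissue, in the pooled lists and the 5 libraries; the dotted line is the eye-only border. At *Btk* and *Cyp12c1* every eye row has a border at the line and the antennal rows have none nearer than 60 kb, whereas at *CG18278* the antennal libraries have a border 20 to 25 kb to the right.

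Among the named borders at 30 to 35 kb from a pooled antennal border, that at 14625 kb on 3R lay in *put*, which encodes a type II receptor of BMP and activin signals (14619030 to 14625703). It was 0.703 kb from the end of *put* and beside the histone gene *His4r* and *CG7886*. Library distances were 5, 0 and 0 kb in the eye and 30 and 35 kb in the antenna. The border at 19175 kb on 2R lay in *CG10737* near *hppy*, a Ste20-family kinase gene, with 5, 0 and 0 kb in the eye and 35 and 30 kb in the antenna. The border at 12135 kb on 2R lay 3.69 kb from *CG18343* and near *SkpB*, with 0, 0 and 0 kb and 35 and 30 kb, and that at 12830 kb on 3L fell in *nebu*, with 0, 0 and 5 kb and 30 and 30 kb. None of these genes is in the lists of eye or antennal development used here.

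None of the 5 eye-only borders farthest from the antennal list was held by all 3 eye libraries. They lay 180 to 135 kb from a pooled antennal border and were each held by 1 or 2 eye libraries and no antennal library. The border at 165 kb on 3R, 402 kb before *Myo81F*, lay before the first pooled antennal TAD of the arm. The borders at 21750 and 21770 kb on X, 120 and 140 kb from *DIP1*, bounded a short gap between eye TADs inside 1 antennal TAD (21545001 to 21930000). Both had 0 kb in eye libraries 2 and 3, while eye library 1 was 235 and 255 kb away. The others were at 4050 kb on 3R, 27.9 kb from *CG42402*, and in *stol*.

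The antennal TAD with the most eye-only borders lay on X from 22120001 to 22440000. Its 3, at 22175, 22190 and 22215 kb, stood beside *CG46509*, *CG46512* and *CG46516*, and no library of either tissue had a border within 5 kb of any of them. Nearest borders were 335 to 375 kb away in eye library 1 and 55 to 95 kb away in eye libraries 2 and 3. Of the 28 TADs with 2 eye-only borders, the widest were 385 kb. They were the TAD near *DIP1*, one on 3L (27315001 to 27700000, borders at 27620 and 27645 kb, beyond the calls of eye library 1) and one on 3R (3810001 to 4195000, borders at 3875 and 4050 kb).

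Eye-only borders were spread over all arms. They made up 23.4% of pooled eye borders on 2L (44), 23.2% on 2R (48), 27.3% on 3L (68), 25.3% on 3R (74), 21.3% on X (42) and 3 of 12 on chromosome 4. They were more frequent where not every list had TADs. There, 42.0% of 131 pooled eye borders were eye-only, against 22.1% inside the stretch that all 7 lists cover. Of the 55 eye-only borders in these places, 26 were on 3L and 17 on 3R, eye library 1 held 0 and eye libraries 2 and 3 held 33 and 37. All 55 were on chromosome 4 or in the part of their arm next to the centromere. A gap between eye TADs, or the outer end of an arm's eye TADs, adjoined 8.96% of eye-only borders and 2.65% of shared ones. The eye TADs beside the 2 kinds of border were about as wide, with medians of 100 and 105 kb.

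Eye-only borders lay at fewer genes than shared borders. Gene positions were not used by the rule, but borders of 1 genome are not replicates, so the values carry no test. The gene table has no strand, exons or introns, and either end of a gene can be its transcription start. Within 5 kb of an eye-only border lay 2.73 gene ends on average, against 4.09 at shared borders and 2.67 at all bin positions between the outermost eye borders. Inside the stretch that all lists cover, the values were 3.35 for 224 eye-only borders, 4.42 for 791 shared ones and 2.86 for all bin positions. No gene end lay within 5 kb of 39.4% of eye-only and 21.6% of shared borders.

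Over whole arms, the number of gene ends went with the number of eye libraries that held a border, in both kinds. Eye-only borders had 2.00 gene ends when no eye library held them (18), 2.20 with 1 (83), 2.72 with 2 (115) and 3.67 with 3 (63). Shared borders had 3.12 with 1 eye library (84), 3.31 with 2 (308) and 4.81 with 3 (471). The 29 that followed the tissue had 4.24, and 25 of them had a gene end within 5 kb. With 1, 2 or 3 eye libraries, eye-only borders had fewer gene ends than shared ones; the 4 shared borders in no eye library had 0.25. The 55 eye-only borders outside the stretch that all lists cover had 0.218 gene ends each, and the 76 shared borders there 0.658. Eye library 1 held 0 of these 55, so none of them is among the borders with 3 eye libraries. The trend was not computed inside the stretch that all lists cover. Borders outside it can therefore weigh on the trend.

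**Figure D5:**
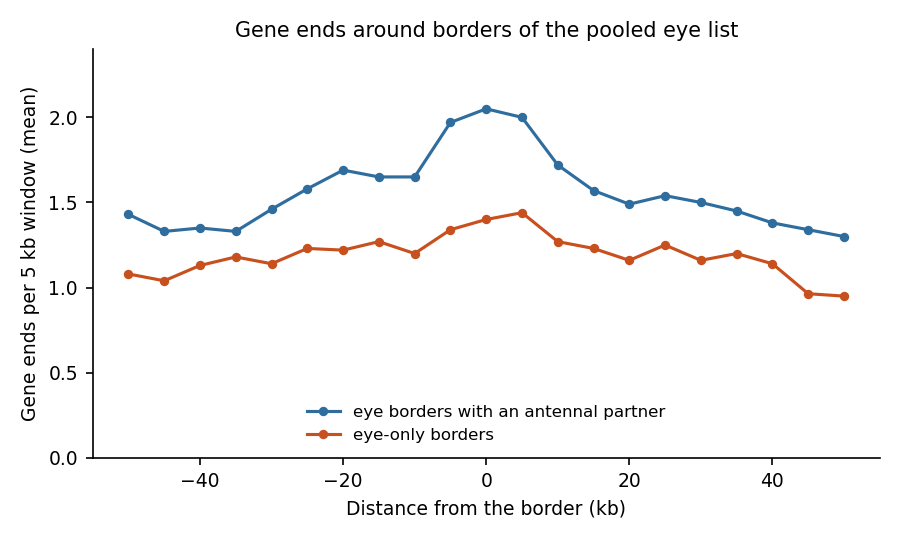
Mean number of gene ends per 5 kb window at distances up to 50 kb from eye-only and shared borders of the pooled eye list. Shared borders peak at 2.05 at the border and fall to 1.30 to 1.43 at 50 kb, whereas eye-only borders stay between 0.95 and 1.44 with a shallow rise at the border.

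Within genes, and over whole arms, eye-only borders tended to lie in longer ones than shared borders did. A gene body of any kind contained 170 of the 279 (60.9%), against 72.2% of shared borders and 70.2% of all bin positions. For the 160 inside a coding gene, that gene (the longest where several overlap) had a median length of 22.6 kb, and 31.9% were 50 kb or longer. For the 609 shared borders inside a coding gene the median was 11.4 kb and 17.9% were 50 kb or longer. Among all coding genes the median was 2.16 kb, but a long gene is also hit more often by any position. Gene lengths were not compared inside the stretch that all lists cover, so borders outside it can weigh on this contrast. *Myo81F*, a myosin gene spread over 567076 to 2532932 next to the centromere on 3R, held 7 eye-only borders. All of them lay before the first TADs of eye library 1 and antennal library 3. On 3L, *lovit* held 3, also outside the stretch that all lists cover.

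A few genes of eye and antennal development lay at eye-only borders. Of 17673 genes on the arms, 552 (3.12%) contained or lay within 5 kb of an eye-only border. Counts were 0 of 14 retinal determination genes, 3 of 39 photoreceptor and eye patterning genes, 1 of 27 antennal identity genes, 1 of 12 Hox complex genes, 0 of 24 signalling ligands and 1 of 26 selector genes of other discs. They were 0 of 25 opsin and phototransduction genes, 1 of 24 insulator and architectural protein genes, and 4 of 92 cytosolic ribosomal protein genes (*RpL24*, *RpL14*, *RpL27* and *RpS7*). With lists of this size, a share near the background amounts to about 1 gene, and no list was tested.

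The 3 eye patterning genes were *sev*, *pros* and *pnt*. At 11085 kb on X the border lay in *sev*, the receptor tyrosine kinase gene of the R7 photoreceptor (11071441 to 11086299), 1.30 kb from its end. All eye libraries had it at 0 kb, and so did antennal library 2, while antennal library 3 was 15 kb away; the pooled antennal border was 20 kb away. At 23345 kb on 3R the border lay in *pnt*, the ETS factor gene of the EGF receptor pathway (23290231 to 23346167), and all 5 libraries held it, at 0, 5 and 5 kb in the eye and 5 and 5 kb in the antenna. The pooled antennal border was 10 kb away, so by the 5 kb limit the pooled lists differed here although all 5 libraries held the border. Distances between the library borders themselves were not computed.

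At 11400 kb on 3R the border lay in *pros*, a homeodomain factor gene of R7 and cone cells (11328480 to 11407627), in the middle of a 100 kb antennal TAD. Eye libraries 1, 2 and 3 had borders 30, 0 and 5 kb away and antennal libraries 2 and 3 had theirs 45 and 50 kb away. All eye libraries were nearer than the antennal ones, but library 1 lay outside the threshold. At 1050 kb on 3L the border lay in *bab1*, a BTB factor gene of antennal and leg segments (1036369 to 1101089), 10, 5 and 0 kb from eye library borders and 15 and 15 kb from antennal ones. The single insulator gene was *SMC1*, a cohesin subunit gene 3.29 kb from the border at 24055 kb on 3R named above; all 5 libraries held it, at 0, 0 and 0 kb and 5 and 5 kb.

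In the bithorax complex, which patterns the posterior body, 2 antennal TADs with matched ends were divided. The border at 16660 kb on 3R lay 3.38 kb inside *Ubx* (16656623 to 16734426), beside *modSP*, and divided a TAD of 175 kb. It was held at 5, 5 and 0 kb by the eye libraries and at 5 kb by antennal library 2, while antennal library 3 was 40 kb away. The border at 16855 kb lay in *MSAmiP*, beside the microRNA genes *mir-iab-4* and *mir-iab-8*, and divided the 185 kb TAD that holds *Abd-B*. Its distances were 0, 50 and 0 kb in the eye and 50 and 55 kb in the antenna, so eye library 2 lay as far away as the antennal libraries.

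Of the other loci named, *ct*, a homeobox gene of antennal and sense organ identity on X, was nearest to a border that followed the tissue. That border, at 7715 kb in *CG15478*, lay 36.1 kb from *ct* (7608428 to 7678859), inside the antennal TAD that holds the whole of *ct*. Eye libraries held it at 0, 0 and 0 kb and the antennal libraries had borders 20 and 20 kb away. Nearest eye-only borders were 75.7 kb from *ato*, 87.6 kb from *hth*, 129 kb from *ey*, 256 kb from *ss*, 271 kb from *Antp*, 450 kb from *so*, 600 kb from *Dll* and 1010 kb from *eya*. The border nearest to *hth*, a homeobox gene of the antenna, at 10420 kb on 3R, was held by all 3 eye libraries and by antennal library 3. Of the retinal determination genes, none had an eye-only border within 5 kb.

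Some neuronal recognition genes, which are long, also contained eye-only borders. Of 32 genes for Dpr and DIP proteins, immunoglobulin-type surface proteins that pair neurons, 5 (15.6%) were at an eye-only border, namely *dpr8*, *DIP-lambda*, *dpr6*, *dpr10* and *dpr17*. These 5 genes are 16.5 to 379 kb long, against the median of 2.16 kb for coding genes, and a longer gene is counted more readily. At *dpr8*, *dpr17* and the border before *DIP-lambda*, however, no eye library had a border within 5 kb. The border in *dpr6* (3L, 10065 kb) was 5, 25 and 5 kb from eye library borders and 25 and 30 kb from antennal ones, and that in *dpr10* (10175 kb) 35, 5 and 0 kb and 15 and 10 kb. These borders in *dpr6* and *dpr10* were held by 2 eye libraries each and by no antennal library.

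Other gene families stood near the background. There were 4 of 186 odorant, gustatory and ionotropic receptor genes (*Or45b*, *Or83c*, *Gr98b* and *Gr98c*), 4 of 94 cuticle genes (*Cpr31A*, *Cpr51A*, *Cpr97Ea* and *Cpr97Eb*) and 0 of 51 odorant binding protein genes. Of tRNA genes, 5 of 295 were counted, of microRNA genes 10 of 260 and of snoRNA genes 14 of 257. The snoRNA genes sat in clusters, with 4 in *lola* at 10535 kb on 2R and 7 beside *RpS7* at 30210 kb on 3R, so the 14 stand for 4 borders. The *lola* border followed the tissue, at 5, 0 and 0 kb in the eye libraries and 25 and 25 kb in the antennal libraries. The *RpS7* border, which also lay in *Anp* among cecropin genes of the immune response, was 25, 0 and 5 kb from eye library borders and 30 and 0 kb from antennal ones. The *RpL14* border at 8605 kb on 3L was 10, 0 and 0 kb from eye library borders and 30 and 35 kb from antennal ones, and that near *RpL24* was held by no library. A border at 9555 kb on 2R lay within 5 kb of both *mir-14* and *Or45b*, with 20, 0 and 5 kb in the eye libraries and 25 and 15 kb in the antennal libraries.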

How the data were processed

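Hi-C libraries of eye and antennal discs were aligned to dm6 with Bowtie2 2.3.4.2, per the submitters' processing notes. How TADs were called, with which tool and bin, is not given in the sources used here. Each deposited file holds TAD coordinates (chromosome, start, end), 1 file per library and 1 per tissue from all replicates, without contacts or scores. All positions are multiples of 5000 bp and the narrowest TAD is 25 kb wide. Sequencing depth is unknown, so no counting error is given; precision rests on 3 and 2 libraries, and the labels do not say whether the pools came from separate crosses. A shallower library can lose or move borders.

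A library held a border when one of its own lay within 5 kb. The members, the 16 gene lists and the rule for named borders were chosen with earlier results of these data known. That rule takes the 12 farthest borders among those in all 3 eye libraries and neither antennal library, the 5 farthest of all, those within 5 kb of listed genes, 5 divisions with the least difference in kb between the pieces (a tie for the last places was settled by arm and position), the 3 antennal TADs with the most eye-only borders, and 11 loci. *Myo81F* and *lovit* were chosen after their values were seen. Of the tRNA, microRNA and snoRNA genes only examples are named. Gene positions are those of RefSeq on Release 6 (17673 genes on 6 arms, 13911 coding), the assembly of dm6; lists were matched by symbol. Motifs in promoters, a planned description, were not used here. No test was made, because the libraries also formed the pooled lists that chose the members. The steps that find eye-only borders and divided TADs were tested on simulated lists with planted splits. Those lists had no shifted borders, gaps, replicate libraries or genes, so the other steps were not tested in this way. Python 3.11.15, numpy 2.4.6, pandas 2.3.3 and matplotlib 3.10.9 were used.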

Additional observations from a re-analysis of the deposited data

How the results depend on the processing

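The main limits are the tolerance and the libraries. Of 84 recomputed values 59 stayed within the spread between libraries (counts, within 1.5 times), among them all for the eye libraries' share and for the share inside antennal TADs. The share inside antennal TADs was largely fixed by the rule. The spreads were unequal, with an SD of 20.3 for the eye libraries' share and 1.77 for that of the antennal libraries. The wide eye spread took in values from 45.9% to 71.7%, so staying within it says little. At a tolerance of 0 kb there were 542 eye-only borders, 19 divided TADs with matched ends, a median distance of 10 kb, an antennal share (the mean percentage found in the antennal libraries) of 12.8%, 3.20 gene ends and 66.6% in genes. At 10 kb the median distance was 35 kb, the antennal share 22.9% and the share in genes 56.1%. At 25 kb there were 133 eye-only borders, 14 of them following the tissue, a median of 50 kb, an antennal share of 28.9% and 51.1% in genes. Counting every TAD start and end by itself, so that most borders count double by construction, gave 532 and 58. Inside the stretch that all lists cover, the antennal share was 23.0%, gene ends 3.35 and the share in genes 66.5%. Coding genes alone gave 2.09 gene ends, and a window of 2 bins 5.43. Requiring absence from antennal disc libraries 2 and 3 too left 177 eye-only borders. Leaving out 1 library gave 39 to 74 borders that followed the tissue, where fewer libraries must concur; without eye disc library 1 the count was 74, and without antennal disc library 3 it was 45. Leaving out eye disc library 1 and antennal disc library 3 together, chosen after seeing the data, gave 105. Eye-only borders had fewer gene ends than shared ones at every tolerance (3.20 against 4.27, 2.73 against 4.09, 2.58 against 4.04 and 2.43 against 3.94). For the others the cause of the movement was not tested. No paired analysis was possible because no result comes from a test. Depth is unknown, so what it limits cannot be stated.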
